A study of Homo sapiens with 34 samples.

Results

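The genes described here are the longest protein-coding genes of human chromosomes 1 to 22: those whose annotated span, end minus start in the GRCh38.p14 RefSeq table, is at least 800 kb. The rule used gene span alone and no measured value. It gave 119 of 19126 autosomal protein-coding genes, on 21 chromosomes, with spans of 800.4 kb to 2473.6 kb and a median of 1074.7 kb. Together they occupy 137.9 Mb, or 4.80% of the autosomal span. Of these genes, 20 are on a list of genes at common fragile sites, and 20 hold other annotated protein-coding genes inside their span, such as GPHN with 12 and RANBP2 with 5.

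Very long genes are mostly genes of neurons: adhesion molecules, synaptic scaffolds, receptors and channels, with exons separated by huge introns. A polymerase needs many hours to transcribe such a body, origins of replication are sparse inside it, and replication forks finish it late. Many common fragile sites, where chromosomes break under replication stress, lie within these genes, FHIT and WWOX being classic examples. Orc6 is a subunit of the origin recognition complex, which marks future origins. SMARCA1 is an ATPase of the ISWI family, which slides nucleosomes, and OGG1 is a repair glycosylase that cuts 8-oxoguanine out of DNA after oxidation.

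CUT&RUN, a method that cuts out the DNA beside a protein with a nuclease held there by an antibody, was run on U2OS, a human osteosarcoma line, with antibodies against these 3 proteins. Cells had received an siRNA against Orc6 (siOrc6) or the control siRNA siGl3 for 72 h, went through a double thymidine block, were released for 3 h into S phase, and were given H2O2 at 5 mM for 30 min or left non-treated (NT). Lists of called regions were used for 20 libraries in 10 groups of n = 2: Orc6 in siGl3 cells with H2O2 and NT, and OGG1 and SMARCA1 each in siOrc6 and siGl3 cells with H2O2 and NT. The other 14 of 34 samples, among them the IgG libraries of siGl3 cells, were not analysed here. The labels name the replicate number as a batch and do not say whether replicates are separate cultures, so p-values measure the spread between these libraries, which may be technical. All groups are the same cell line and the same S phase release. Depth is unknown, since the lists give no read counts, and no expression was measured, so the knockdown is not checked here.

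Lists held 6970 to 131095 autosomal regions, and NT lists of OGG1 and SMARCA1 were shorter than their H2O2 lists. Each gene is therefore described by its observed number of regions over the number expected if that library's autosomal regions were spread evenly by length, called observed over expected, where 1 is the autosomal average. Replicate lists of unequal length overlapped unevenly: 17.6% of the 546 regions of replicate 2 of OGG1 in siOrc6 NT cells in these genes overlapped a region of replicate 1, against 71.4% of 161 the other way. In Orc6 NT cells, 25.7% of the 1383 regions of replicate 2 overlapped replicate 1, against 90.03% of 381 the other way. For SMARCA1, the names of all 4 lists from siOrc6 cells bear the mark of a later submission and those from siGl3 cells do not, so submission and siRNA cannot be told apart.

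Starts of these genes differed widely in how many libraries occupied them, so 6 promoters are shown, from those with a region in nearly every library to those with none. Each is the outermost annotated start of its gene, 250 bases before to 50 after, from RefSeq GRCh38.p14, written 5′ to 3′ on the strand of the gene. Capitals mark every CG dinucleotide, the motif searched, which reads the same on both strands and was counted without overlap. SUGCT lies at chr7:40134755-40135054 on the plus strand and DAB1 at chr1:58546677-58546976 on the minus strand. FHIT lies at chr3:61251403-61251702 on the minus strand and KCNIP4 at chr4:21948723-21949022 on the minus strand. CNTNAP2 lies at chr7:146116551-146116850 on the plus strand and MGAT4C at chr12:86838951-86839250 on the minus strand.
SUGCT: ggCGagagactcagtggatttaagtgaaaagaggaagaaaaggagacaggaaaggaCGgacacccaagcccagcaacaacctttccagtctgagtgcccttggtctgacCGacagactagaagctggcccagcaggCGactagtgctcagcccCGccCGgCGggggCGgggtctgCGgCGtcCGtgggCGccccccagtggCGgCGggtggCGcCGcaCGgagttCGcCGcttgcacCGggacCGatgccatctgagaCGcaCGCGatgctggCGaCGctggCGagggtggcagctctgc
DAB1: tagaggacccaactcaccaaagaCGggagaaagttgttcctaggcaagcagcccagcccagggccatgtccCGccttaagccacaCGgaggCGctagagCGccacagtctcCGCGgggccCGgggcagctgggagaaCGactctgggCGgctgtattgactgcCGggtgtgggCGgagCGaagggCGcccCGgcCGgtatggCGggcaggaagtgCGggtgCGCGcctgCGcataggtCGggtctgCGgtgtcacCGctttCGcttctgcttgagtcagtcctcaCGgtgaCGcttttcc
FHIT: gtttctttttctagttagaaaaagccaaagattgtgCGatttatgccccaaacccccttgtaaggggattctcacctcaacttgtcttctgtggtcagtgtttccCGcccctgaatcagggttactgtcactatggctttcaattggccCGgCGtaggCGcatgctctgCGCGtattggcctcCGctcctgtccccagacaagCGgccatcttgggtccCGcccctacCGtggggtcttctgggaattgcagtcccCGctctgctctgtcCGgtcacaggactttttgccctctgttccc
KCNIP4: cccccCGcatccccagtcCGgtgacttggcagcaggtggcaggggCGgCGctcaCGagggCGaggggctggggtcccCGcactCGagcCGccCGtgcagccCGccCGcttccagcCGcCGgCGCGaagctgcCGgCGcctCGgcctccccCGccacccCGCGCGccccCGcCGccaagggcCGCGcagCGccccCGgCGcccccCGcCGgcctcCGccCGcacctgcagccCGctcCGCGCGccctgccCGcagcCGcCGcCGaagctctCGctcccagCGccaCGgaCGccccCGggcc
CNTNAP2: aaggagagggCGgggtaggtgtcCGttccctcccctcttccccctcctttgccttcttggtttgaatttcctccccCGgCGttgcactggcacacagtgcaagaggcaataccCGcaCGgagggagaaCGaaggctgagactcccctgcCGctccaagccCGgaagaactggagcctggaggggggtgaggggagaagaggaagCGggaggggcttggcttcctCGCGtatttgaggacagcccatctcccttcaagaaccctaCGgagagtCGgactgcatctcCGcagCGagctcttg
MGAT4C: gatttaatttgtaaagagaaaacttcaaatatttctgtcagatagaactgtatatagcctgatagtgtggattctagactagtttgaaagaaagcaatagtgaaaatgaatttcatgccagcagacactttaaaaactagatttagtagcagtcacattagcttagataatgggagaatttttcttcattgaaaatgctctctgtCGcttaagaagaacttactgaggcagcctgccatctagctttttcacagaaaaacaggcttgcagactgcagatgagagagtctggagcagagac

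The SUGCT and DAB1 windows, with 27 CG each, overlapped a region in 19 of 20 libraries. The FHIT window, with 13 CG, was occupied in 6 libraries: 4 of 4 OGG1 H2O2 and 2 of 4 SMARCA1 H2O2 libraries, against 0 of 4 OGG1 NT and 0 of 4 SMARCA1 NT libraries. The KCNIP4 window is a counter-example, with 47 CG but a region in 4 libraries. The CNTNAP2 window, with 16 CG, and the MGAT4C window, with 1 CG, were occupied in 0 of 20 libraries.

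Promoter sequence was at hand for 249 annotated starts of 100 of the genes. The 37 starts occupied in at least 15 libraries had a median of 27 CG and 67% G+C, and 73.0% of them held at least 20 CG. The 135 starts occupied in 1 to 14 libraries had a median of 15 CG and 59% G+C. The 77 starts occupied in none had a median of 5 CG and 45.3% G+C, and 14.3% of them held at least 20 CG. Of all 33725 annotated autosomal starts, 41.4% held at least 20 CG, with a median of 14. Starts of 1 gene share its surroundings, so these are counts of windows and carry no test, and a CG count is a description of the letters.

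Regions of all 3 proteins were sparse in the very long genes. Observed over expected for the 119 genes together lay between 0.153 and 0.688 over the 20 libraries, with a median of 0.342. The medians were 0.684 for the 346 genes of 400 to 800 kb, 0.993 for the 875 genes of 200 to 400 kb, 1.39 for the 1870 genes of 100 to 200 kb and 1.96 for the 15916 shorter genes. Density was lower in each longer class. Within the 119 genes, however, span and observed over expected were only weakly related across genes (Spearman's rho −0.14, Pearson's r −0.17, n = 119), and values were low both just above the limit (SLC24A2 0.0128) and just below it (UNC13C 0.00801 at 795.8 kb, RYR2 0.0279 at 791.8 kb). Genes are not independent replicates, and all share the same libraries.

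**Figure D1:**
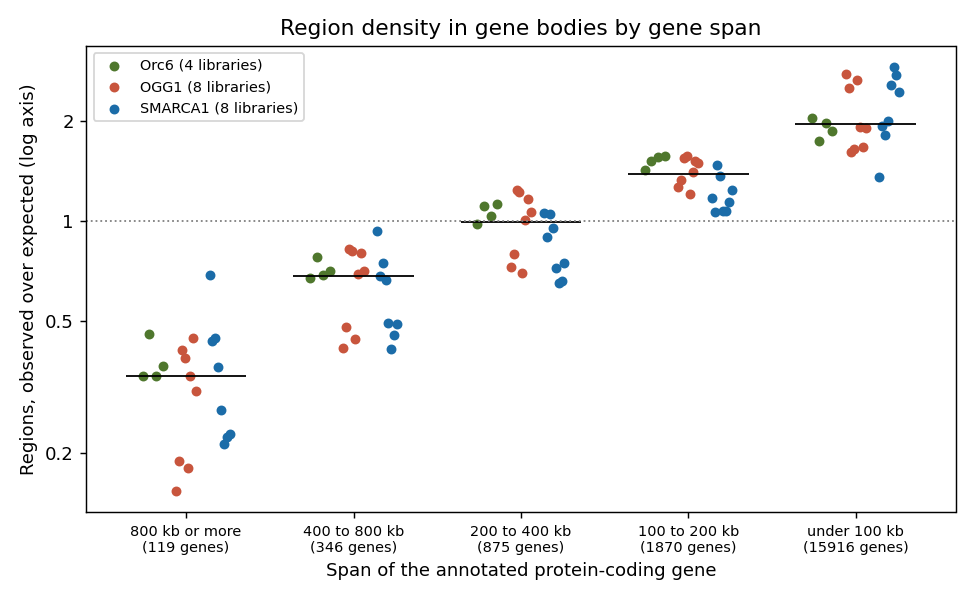
Observed over expected regions (log axis) of 5 classes of gene span, one point per library, with Orc6, OGG1 and SMARCA1 in separate colours and the black line at the median of 20 libraries. The very long genes sit lowest, with a median of 0.342, and genes under 100 kb highest, with a median of 1.96.

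For Orc6, observed over expected was 0.341 and 0.366 in H2O2 libraries, against 0.341 and 0.456 in NT libraries. For OGG1 it was 0.445 and 0.306 in siOrc6 H2O2, 0.409 and 0.386 in siGl3 H2O2, 0.180 and 0.342 in siOrc6 NT and 0.153 and 0.189 in siGl3 NT libraries. For SMARCA1 it was 0.223 and 0.228 in siOrc6 H2O2, 0.269 and 0.212 in siOrc6 NT, 0.443 and 0.364 in siGl3 H2O2 and 0.688 and 0.436 in siGl3 NT libraries. All SMARCA1 siOrc6 libraries were below all SMARCA1 siGl3 libraries, and the OGG1 H2O2 and NT libraries overlapped through replicate 2 of siOrc6 NT.

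In regions per Mb, the genes held 20.3 and 7.72 (siOrc6) and 18.6 and 14.7 (siGl3) OGG1 regions with H2O2, against 1.17 and 3.96 (siOrc6) and 0.943 and 1.39 (siGl3) in NT libraries. SMARCA1 had 2.71 and 5.11 (siOrc6) and 10.7 and 5.93 (siGl3) regions per Mb with H2O2, against 1.37 and 0.805 (siOrc6) and 1.67 and 1.67 (siGl3) in NT libraries. Orc6 had 6.25 and 4.72 with H2O2, against 2.76 and 10.03 NT. These densities follow the length of each list as well as its placing, which is why the ratio to the list's own average is used. Between 41 and 114 of the 119 genes held a region in a given library, with a median of 92.5.

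Each gene's ratio was also tested against 1 (limma on log2 of observed plus 0.5 over expected plus 0.5, fitted on 1340 genes of at least 200 kb, Benjamini-Hochberg adjusted p under 0.05 over all of them). For Orc6, 98 of 119 were below expectation and 6 above, where 52.6% and 18.8% of the 1340 genes were. For OGG1, 107 were below and 6 above (59.6% and 16.9% of the 1340), and for SMARCA1, 106 were below and 7 above (72.1% and 12.5%). The median log2 ratio was −2.15 for Orc6, −2.70 for OGG1 and −2.61 for SMARCA1 over the 119 genes, beside −0.92, −1.01 and −1.34 over the 1340. With 0.5 added to both parts, the lowest value that a gene without regions can reach falls as its span and expected number rise. Medians and shares called below are thus not on an equal footing between the 119 genes and the 1340, and the part of span in their gap was not tested.

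The genes varied far more than their shared low level. Averaged over the 20 libraries, 107 of 119 were below 1 and 98 below 0.5, with a median of 0.159 and values between 0 and 3.51. By role, the 10 genes of RNA and transcription control had the highest median (0.448), followed by 21 scaffolds and adaptors (0.233), 24 enzymes (0.223), 8 cadherins and catenins (0.145), 20 other adhesion molecules (0.144), 9 secreted and other proteins (0.112), 16 receptors (0.0774) and 11 channels (0.0566). All 16 receptors, all 11 channels and all 8 cadherins and catenins averaged below 1, as did 107 of all 119 genes. The groups are broad: the receptors include NRG1, a ligand (0.996), and the enzymes include CAST, an inhibitor (1.87). These role groups were not tested against each other.

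The highest was RAD51B (chr14:67819779-68683096), a gene of homologous recombination that sits at a fragile site, with a mean observed over expected of 3.51 from 805 regions. Its SMARCA1 values were 2.67 and 2.58 in siOrc6 H2O2, 3.41 and 4.27 in siOrc6 NT, 4.45 and 4.91 in siGl3 H2O2 and 9.55 and 6.66 in siGl3 NT libraries. Its OGG1 values were 1.55 and 2.11 in siOrc6 H2O2, 3.22 and 3.10 in siOrc6 NT, 1.71 and 2.10 in siGl3 H2O2 and 2.63 and 2.53 in siGl3 NT libraries, and its Orc6 values 2.78 and 3.24 with H2O2, against 3.15 and 3.68 NT. All 20 libraries were above 1. In the test against expectation its log2 ratio was 1.64 for Orc6 (SE 0.16), 1.16 for OGG1 (SE 0.11, limma adjusted p = 3.5e-09) and 2.03 for SMARCA1 (SE 0.11, limma adjusted p = 1.3e-12). OGG1 regions covered 86.9% and 57.1% (siOrc6) and 81.9% and 70.1% (siGl3) of the RAD51B body with H2O2, against 23.01% and 62.04% (siOrc6) and 20.1% and 26.5% (siGl3) NT. They covered 25.8% and 19.3% (siOrc6) and 28.5% and 26.8% (siGl3) of the autosomes with H2O2, against 7.35% and 9.98% (siOrc6) and 5.74% and 8.46% (siGl3) NT, so coverage was higher in the autosomes as a whole too.

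The next 4 were GPHN, RANBP2, SUGCT and CAST, each with a region in 20 of 20 libraries. GPHN (chr14:66508147-67735355, mean 2.65) encodes gephyrin, the anchor of inhibitory receptors at synapses, and is the neighbour of RAD51B. RANBP2 (chr2:108719482-109842301, mean 2.37) encodes a large protein of the nuclear pore. The spans of GPHN and RANBP2, taken as annotated, hold 12 and 5 other protein-coding genes. Their densities and ends, here and below, thus describe a stretch of several genes. SUGCT (chr7:40135005-41038816, mean 1.96) encodes a mitochondrial CoA transferase, and CAST (chr5:95961429-96774683, mean 1.87) encodes calpastatin, the inhibitor of calpains. GPHN, RANBP2 and CAST were above expectation for all 3 proteins. DLGAP1, a postsynaptic scaffold, was too, with log2 ratios of 1.01 (Orc6), 0.37 (OGG1) and 0.97 (SMARCA1). SUGCT passed for Orc6 (0.90) and SMARCA1 (0.86), LRMDA for SMARCA1 (0.74) and SDK1, a cell adhesion molecule, for OGG1 (0.59).

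At the other end, DLGAP2, another postsynaptic scaffold, had 0 regions in all 20 lists. CNTNAP2 (chr7:146116801-148420998), a neurexin family adhesion protein and the second longest gene at 2304.2 kb, had 1 region in 1 library. DSCAM, an adhesion molecule (0.00538), CSMD1, a membrane protein with complement-control domains (0.00558), and PTPRD, a receptor phosphatase (0.00709), followed. Among the 5 longest, RBFOX1, a splicing regulator of 2473.6 kb (0.578 from 651 regions), and DLG2, a postsynaptic scaffold of 2173.4 kb (0.193), were higher than CNTNAP2, PTPRD and CSMD1.

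The 20 genes of the fragile-site list resembled the other 99: their median of mean observed over expected was 0.166, against 0.156. RAD51B (3.51) and SDK1 (1.52) were the ones above 1. AUTS2, a neurodevelopmental regulator, had 0.489, DPYD, which breaks down pyrimidines, 0.343, and CTNNA3, an alpha-catenin, 0.288. The reelin adaptor DAB1 had 0.251, PARD3B, a polarity protein, 0.238, and DLG2 0.193. The oxidoreductase WWOX (0.169) and the scaffold MAGI2 (0.153) lay near the median of all 119. Below 0.1 were NAALADL2 (0.0821), the ADP-ribose hydrolase MACROD2 (0.0763), the mitochondrial peptidase IMMP2L (0.0737), the lipoprotein receptor LRP1B (0.0437), the hydrolase FHIT (0.0372), the exocyst subunit EXOC4 (0.0346) and CNTNAP2. The list was drawn from general knowledge of fragile sites and gives no evidence of breakage in these cells.

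**Figure D2:**
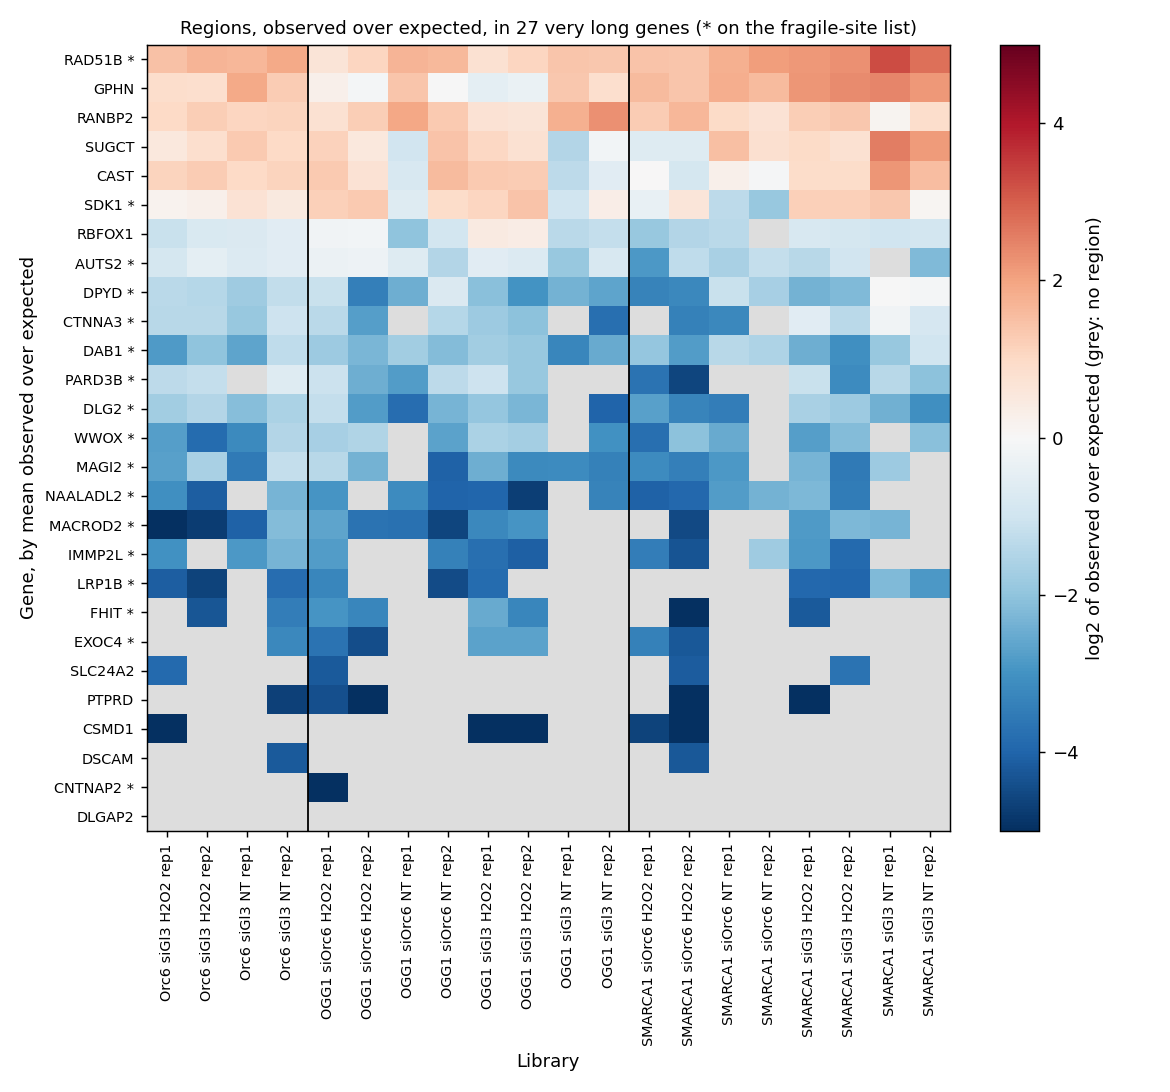
Observed over expected regions (log2 colour scale, grey where a library has no region) of 27 of the genes in rows, by mean, and 20 libraries in columns, with Orc6, OGG1 and SMARCA1 separated by lines and asterisks for 17 of the 20 fragile-site genes. RAD51B is red in all 20 libraries, FHIT is grey in 12 and DLGAP2 in all 20.

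Some places inside these genes were covered in every library. In 7 genes an interval was covered by regions of all 20 libraries, and in 23 by at least 18. No IgG library was compared with these intervals, so signal there without a specific antibody was not tested. In GPHN the shared interval (chr14:67239930-67243883) lay 0.471 kb from the start of PALS1, in RANBP2 (chr2:109612657-109614816) 0.23 kb from that of SEPTIN10, and in IQCJ-SCHIP1 (chr3:159763501-159764446) 0.291 kb from that of SCHIP1, all 3 being starts inside the long gene. In CAST (chr5:95961835-95962965) and ADGRL3 (chr4:61203138-61203383) it lay 0.399 kb and 1.09 kb from the gene's own start. In RAD51B (chr14:68576071-68577987) it lay 87.7% along the body and 33.5 kb from the nearest annotated start, and in LRMDA (chr10:76114619-76115116) 190 kb from it. Of the 23 intervals shared by at least 18 libraries, 11 were within 1 kb of an annotated start at hand and 13 within 5 kb. These counts are a lower limit. No start was at hand on chromosome 8, so the intervals of VPS13B and NRG1 had no distance and count as not near. The VPS13B interval (chr8:99013274-99014392) reached the annotated edge of the gene. CDH13 had no start of its own at hand, so its interval was measured from another gene's start. The table used gives starts but no exons or introns.

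Annotated starts were sparse in these genes, with a median of 3.54 per Mb, against 12.4 per Mb over the autosomes. Across the 112 genes with starts at hand, starts per Mb and mean observed over expected had a Spearman's rho of 0.38 and a Pearson's r of 0.46, as a description across genes that share the same libraries.

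Along the body, regions were denser at the ends than inside. With the ends taken as the outer 5% on each side, regions per Mb in the ends were 1.30 to 3.82 times those inside over the 20 libraries, with a median of 2.05. For this ratio and for the bins below, regions were summed over genes in each library, so genes with many regions weigh most. Along 100 genes of known strand in 10 equal bins, the median over the 20 libraries of the density relative to the whole body was 1.42 in the first bin, 0.688 in the second and 0.582 in the third. It was then 0.746, 0.789, 0.916, 1.02, 1.05 and 1.19 up to 1.46 in the last. The third bin was the lowest in 16 of the 20 libraries, the second in 3 and the fifth in 1. In the 4 OGG1 NT libraries the median was lowest in the second bin (0.389).

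**Figure D3:**
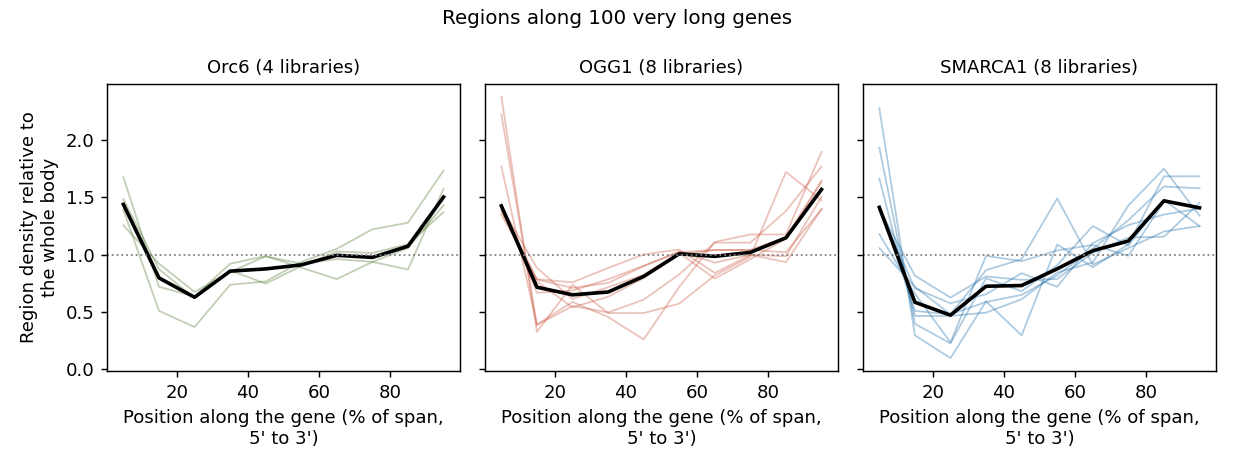
Region density relative to the whole body (y axis) in 10 equal bins from 5′ to 3′ (x axis, % of span) over 100 very long genes, with a thin line for each Orc6, OGG1 or SMARCA1 library and a black line for their median. Densities start high at 1.42 in the first bin, drop to 0.582 in the third and end at 1.46, as medians of 20 libraries. Regions were summed over the genes in each library.

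At the scale of 1 kb on each side of the 2 gene ends, the 5′ end was occupied far more often than the 3′ end. A median of 32.5% of the 100 genes had a region at the 5′ end and 7% at the 3′ end. Orc6 libraries occupied 42% and 33% of 5′ ends with H2O2, against 23% and 38% NT. OGG1 libraries occupied 66% and 63% (siOrc6) and 62% and 71% (siGl3) with H2O2, against 43% and 27% (siOrc6) and 32% and 31% (siGl3) NT. SMARCA1 libraries occupied 63% and 69% (siOrc6) and 26% and 25% (siGl3) with H2O2, against 30% and 27% (siOrc6) and 3% and 10% (siGl3) NT. Within both siRNAs, each H2O2 library of OGG1 and of SMARCA1 was above each NT library, and their lists were also longer. Either end was occupied less often in the very long genes than in all 19126 genes in each library, for example in 75.6% against 83.6% for OGG1 siGl3 H2O2 replicate 2 and 9.24% against 22.6% for SMARCA1 siGl3 NT replicate 2.

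**Figure D4:**
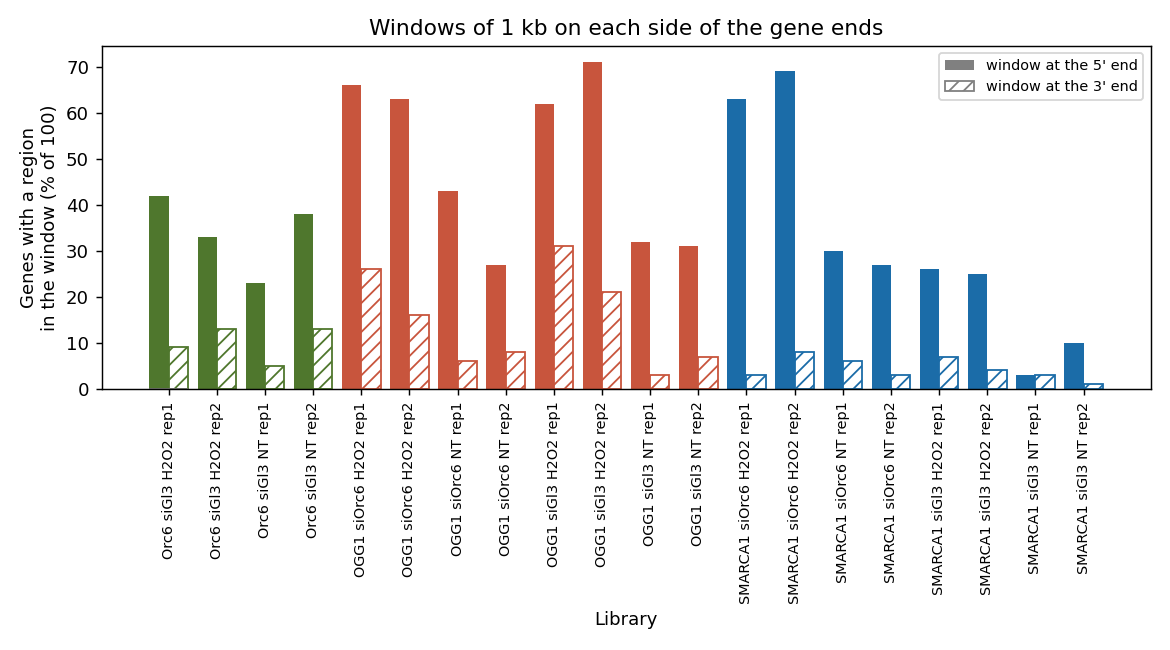
Share of 100 very long genes (y axis, %) with a region within 1 kb of the 5′ end (filled bars) and the 3′ end (hatched bars) in each of 20 libraries, coloured by antibody. The 5′ bars reach 71% in an OGG1 H2O2 library and 69% in a SMARCA1 siOrc6 H2O2 library, and the 3′ bars reach 31%.

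Gene by gene, ends were denser than inside in 72 of 119 for Orc6, 98 for OGG1 and 95 for SMARCA1, and less dense in 3, 3 and 6 (limma adjusted p under 0.05). The shares over the 1340 genes were 45.7%, 65.6% and 75.3% denser and 4.78%, 3.66% and 5.22% less dense. These counts include genes with hardly any region, because adding 0.5 to both parts lifts an empty gene above 0: 19, 11 and 18 of the denser genes had no region in the ends at all. A second measure, the excess of regions in the ends over the 10% that a uniform spread would put there, is 0 in an empty gene. By it, ends were denser in 18, 57 and 24 genes (15.1%, 47.9% and 20.2%) and less dense in 5, 6 and 3. Of the 1340 genes, 10%, 37.1% and 21% were denser and 2.09%, 3.58% and 1.42% less dense. For SMARCA1 the share denser was thus near the background. Among genes with at least 10 regions, 55 of 78 for Orc6, 81 of 101 for OGG1 and 54 of 77 for SMARCA1 had more than 10% of their regions in the ends.

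AUTS2 held 30 of 47 Orc6 regions, 54 of 151 OGG1 regions and 17 of 39 SMARCA1 regions in its ends. CDH13, a cadherin, held 10 of 21, 29 of 64 and 18 of 28, and both genes passed both measures for all 3 proteins. The fragile-site genes FHIT (15 of 31), WWOX (31 of 59) and MAGI2 (29 of 53) also passed both for OGG1. ATRNL1 held 18 of 19 SMARCA1 regions in its ends. The opposite was seen in RANBP2, with 6 of 148 Orc6, 25 of 426 OGG1 and 4 of 250 SMARCA1 regions in its ends, and in ZFHX3, a zinc-finger transcription factor, with 2 of 140 OGG1 regions. RAD51B had 22 of 322 OGG1 regions in its ends and was also less dense there. For Orc6 and SMARCA1 its ends did not pass either measure, with 19 of 172 and 41 of 311 regions there.

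H2O2 was compared with NT over both siRNAs. OGG1 ratios were higher in 32 of the 119 genes and lower in 11 (limma adjusted p under 0.05), shares of 26.9% and 9.24%, where 29.2% and 8.36% of the 1340 genes were called. The median log2 difference was 0.64 in the 119 genes and 0.69 in the 1340. The count of very long genes called is thus near the background. In the quasi-Poisson model, a count model added as an alternative, 2 were higher and 0 lower (0.532% and 0.304% of the genes it could fit), and 33 had an unadjusted p under 0.05. With all lists cut to the 6970 regions of highest signal, 0 were called, and with no scaling for list length 101 were called, all higher. The limma count fell to 15 higher and 6 lower without replicate 1 of OGG1 siOrc6 NT.

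RBFOX1 and ASIC2 passed in both models. The RBFOX1 ratio was 0.895 and 0.914 (siOrc6) and 1.37 and 1.28 (siGl3) in H2O2 libraries, against 0.250 and 0.523 (siOrc6) and 0.394 and 0.441 (siGl3) in NT libraries. ASIC2, an acid-sensing ion channel, had 0.939 and 1.01 (siOrc6) and 1.64 and 1.73 (siGl3) with H2O2, against 0.270 and 0.377 (siOrc6) and 0.284 and 0.358 (siGl3) NT. In neither gene did the H2O2 and NT libraries overlap. The log2 differences were 1.43 (SE 0.52, limma adjusted p = 0.0343) for RBFOX1 and 1.83 (SE 0.52, limma adjusted p = 0.00945) for ASIC2.

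OPCML, an opioid-binding adhesion molecule of the IgLON family, had the largest limma difference, 2.88 (SE 0.46, adjusted p = 0.00021). It held 26 and 10 (siOrc6) and 33 and 28 (siGl3) regions with H2O2, against 1 and 0 (siOrc6) and 0 and 0 (siGl3) NT. ZBTB20, a transcriptional repressor (2.50), PDE4D, a cAMP phosphodiesterase (2.35), TMEM132D (2.27), AGBL4, a tubulin deglutamylase (2.15), TENM2, a teneurin (2.11), NTM, neurotrimin (2.08), and NPAS3, a transcription factor (2.03), followed, and in lists of equal length ZBTB20 and PDE4D had negative differences. None of these 8 passed in the quasi-Poisson model. FHIT, at a mean of 0.0372, held 9 and 4 (siOrc6) and 12 and 6 (siGl3) OGG1 regions with H2O2, against 0 in all 4 NT libraries, and WWOX held 16 and 10 (siOrc6) and 17 and 13 (siGl3), against 0 and 2 (siOrc6) and 0 and 1 (siGl3).

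Of the 11 lower genes, 8 had no region in any NT library, so that their call follows from list length and the added 0.5, not from a loss of regions. The other 3 were NLGN1, GPHN and RANBP2. RANBP2 had ratios of 1.68 and 2.37 (siOrc6) and 1.63 and 1.55 (siGl3) with H2O2, against 3.85 and 2.46 (siOrc6) and 3.47 and 4.86 (siGl3) NT, and the groups did not overlap (log2 difference −0.95, SE 0.29, limma adjusted p = 0.0138). GPHN fell by 1.01 on the log2 scale (SE 0.31, limma adjusted p = 0.0138), with overlapping groups: 1.18 and 0.937 (siOrc6) and 0.718 and 0.793 (siGl3) with H2O2, against 2.64 and 0.984 (siOrc6) and 2.51 and 1.78 (siGl3) NT. The 2 genes thus held more OGG1 regions with H2O2, 302 against 124 and 172 against 70, but a smaller part of longer lists.

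At the gene ends, 12 of the 119 genes had an OGG1 region within 1 kb of either end in 4 of 4 H2O2 libraries and 0 of 4 NT libraries, and 0 the reverse (Fisher's exact test, two-sided, p = 0.0286, adjusted p = 0.0349). This was so for 7.14% of all 19126 genes, and 0% the reverse, so 10.1% of the very long genes were near the background. Among them were AGBL4, SPAG16, FHIT, CADM2, MARCHF1, CDH12, PDE1C, SNTG1, CSMD3, CNTN5 and NRXN3. With lists of equal length the count was 0, and without replicate 1 of OGG1 siOrc6 NT it was 19. In density of ends against inside, 2 genes were higher with H2O2 and 13 lower (2.99% and 12.5% of the 1340), and 0 were called in lists of equal length. Over all 119 genes the ends held 2.03 ± 0.156 times the density inside in H2O2 libraries, against 3.04 ± 0.978 in NT libraries (mean ± SD, n = 4 each), where replicate 2 of siOrc6 NT had 1.61 and lay below all H2O2 libraries. Of the 13 lower genes, 7 had an NT library with no region, where the added 0.5 sets the value. CDH18, a cadherin with the largest difference (−3.18, SE 0.68, limma adjusted p = 0.00988), had 0 of 33 regions in its ends with H2O2, against 1 of 2 NT, with 3 empty NT libraries. SUGCT, with regions in all 8 libraries, had 30 of 266 with H2O2, against 14 of 39 NT (−2.83). By the excess over a uniform spread, which grows with a gene's number of regions, 33 genes were higher with H2O2 and 6 lower (13.3% and 4.7% of the 1340), and 4 of the 13 were among the 6, so the direction of the difference over these genes depends on the measure. Leaving out any of replicate 1 of siOrc6 H2O2 or siOrc6 NT or any siGl3 library of OGG1 left 3 to 7 of these 15 calls.

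SMARCA1 showed no gene higher with H2O2 and 14 lower (limma adjusted p under 0.05), where 1.72% and 7.61% of the 1340 genes were called. With no scaling for list length 43 were called, all higher, and with pseudocount 2 there were 79 lower and 2 higher. The median log2 difference was −0.58, against −0.37 in the 1340, and its sign depended on the measure. With expectation by chromosome it was −0.54, against −0.29. It was 0 in both sets with lists of equal length. By bases covered it was 0.086, against 0.66, and in the quasi-Poisson model 0.38, against 0.69 in the genes it could fit. Of the 14, 8 had no region in any NT library, and the quasi-Poisson model called 0 (17 at an unadjusted p under 0.05). The count was 1 without replicate 1 of siGl3 NT, 4 and 2 without replicates 1 and 2 of siOrc6 NT, 3 without replicate 2 of siOrc6 H2O2 and 8 without replicate 2 of siGl3 H2O2, and it was 4 with lists of equal length.

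The 6 genes with regions in both groups were KCNIP4, DPYD, INPP4B, NTM, SUGCT and LRMDA. SUGCT had ratios of 0.638 and 0.642 (siOrc6) and 1.92 and 1.70 (siGl3) with H2O2, against 2.82 and 1.75 (siOrc6) and 5.93 and 4.34 (siGl3) NT (log2 difference −1.50, SE 0.41, limma adjusted p = 0.0259). NTM had 0.256 and 0.277 (siOrc6) and 0.299 and 0.191 (siGl3) with H2O2, against 0.609 and 0.545 (siOrc6) and 1.28 and 1.08 (siGl3) NT (−1.62, SE 0.46, limma adjusted p = 0.0284). The NTM groups did not overlap, and the SUGCT groups overlapped across siRNAs but not within one. By count, SUGCT held 87 SMARCA1 regions with H2O2, against 47 NT, in lists of different length. For ends against inside, RANBP2 alone was called, lower with H2O2 (−2.49, SE 0.58, limma adjusted p = 0.0377; 0.149% of the 1340 genes lower and 1.49% higher), with 2 of 221 regions in its ends, against 2 of 29 NT, and by the excess 4 genes were higher and 1 lower (1.34% and 0.0746%). Leaving out any of 7 SMARCA1 libraries or replicate 2 of OGG1 siGl3 NT ended the RANBP2 call. Gene-end windows gave 0 genes of all-or-none pattern in either direction (Fisher's exact test, 2.62% and 0.0261% of all genes), and 1 to 5 higher when replicate 1 or 2 of siGl3 H2O2, either siOrc6 NT library or replicate 1 of siOrc6 H2O2 was left out.

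The change with H2O2 was set against each other for the 2 proteins in the same fit. It was more positive for OGG1 than for SMARCA1 in 22 genes and less so in 1, RANBP2 (16.2% and 3.21% of the 1340). NTM (3.71, SE 0.65, limma adjusted p = 0.000765), NRG1, an epidermal growth factor family ligand (3.09), and TENM2 (3.03) led, and RANBP2 was at −1.67. FHIT (2.92) and EXOC4 (2.02) were the fragile-site genes among the 22. For Orc6, H2O2 and NT libraries gave 0 calls in gene bodies by limma (0% of 1340, 5 of the 119 at an unadjusted p under 0.05) and 0 of 119 by the quasi-Poisson model (0% higher and 0.16% lower, 7 unadjusted), with 2 libraries a group. Orc6 ends against inside also gave 0 (0% of 1340, 6 unadjusted). The change with H2O2 did not differ between siRNAs in any of the 119 genes by limma for OGG1 (6 at an unadjusted p under 0.05) or SMARCA1 (8), where 0% of the 1340 genes were called.

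siOrc6 was compared with siGl3 over both treatments. SMARCA1 ratios were lower with siOrc6 in 20 of the 119 genes and higher in 2 (limma adjusted p under 0.05), where 11.5% (lower) and 3.06% (higher) of the 1340 genes were called. The median log2 difference was −0.73, against −0.40 in the 1340. With no scaling for list length, 0 were called. The quasi-Poisson model called 16 lower and 1 higher (8.15% and 2.15%), of which 11 and 1 were also called by limma. All 20 had regions in siGl3 libraries, and 6 are on the fragile-site list: CTNNA3, LRP1B, MACROD2, PARD3B, SDK1 and RAD51B. The mark of a later submission on the siOrc6 lists moves with this difference, and its part was not tested.

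CTNNA3 led, with ratios of 0 and 0.0964 (H2O2) and 0.106 and 0 (NT) in siOrc6 libraries, against 0.669 and 0.398 (H2O2) and 0.891 and 0.564 (NT) in siGl3 libraries. These are 5 regions with siOrc6, against 50 with siGl3, and the libraries did not overlap (−3.15, SE 0.62, limma adjusted p = 0.00237). DGKB, a diacylglycerol kinase, followed at −2.66 with 2 regions, against 23. NRXN3, a presynaptic neurexin, had ratios of 0.145 and 0.105 (H2O2) and 0.347 and 0 (NT) with siOrc6, against 0.729 and 0.795 (H2O2) and 0.728 and 0.462 (NT) with siGl3, without overlap (−2.18, SE 0.53, limma adjusted p = 0.00908).

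ZBTB20 had 0.395 and 0.375 (H2O2) and 0.471 and 0 (NT) with siOrc6, against 2.03 and 1.11 (H2O2) and 2.48 and 1.88 (NT) with siGl3 (−2.37, SE 0.68, limma adjusted p = 0.0214). Its siGl3 libraries were thus all above the autosomal average and its siOrc6 libraries all below. LRP1B (−2.19) held 0 regions with siOrc6, against 7, and MACROD2 (−1.88) held 2, against 15, so their differences rest on few regions. PTPRM, a receptor phosphatase (−1.96), and HDAC9, a histone deacetylase (−1.86), complete the 8 largest. RAD51B fell by 0.90 (SE 0.23, limma adjusted p = 0.0117), with 107 regions against 204. CAMTA1, a calmodulin-binding transcription activator, was higher with siOrc6: 0.586 and 0.816 (H2O2) and 0.797 and 0.535 (NT), against 0.210 and 0.125 (H2O2) and 0 and 0.531 (NT) with siGl3 (1.52, SE 0.49, limma adjusted p = 0.0401). PTPRN2, a receptor-type phosphatase of secretory vesicles, was the other (1.43), with overlapping groups.

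**Figure D5:**
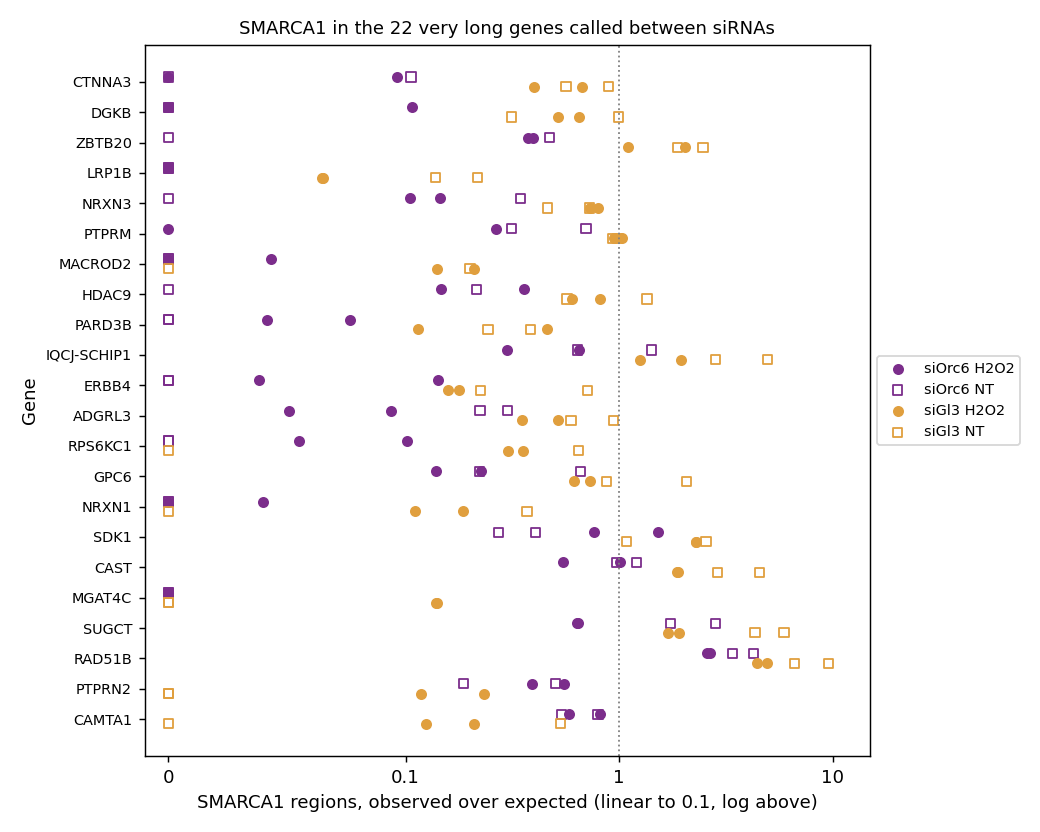
SMARCA1 observed over expected regions (x axis, linear up to 0.1 and log above) in the 22 genes called between siRNAs (rows), one point per library, purple for siOrc6 and orange for siGl3, filled for H2O2 and open for NT. The 20 upper genes lie mostly to the left with siOrc6, as CTNNA3 with 0 to 0.106 against 0.398 to 0.891, and PTPRN2 and CAMTA1 to the right.

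The number of calls moved with single libraries. It was 3 without replicate 1 of siGl3 NT, 5 without replicate 1 of siGl3 H2O2, 12 and 5 without replicates 1 and 2 of siOrc6 NT, and 13 and 11 without replicates 1 and 2 of siOrc6 H2O2. With lists of equal length, 7 genes were lower and 2 higher. In density of ends against inside, 9 genes were higher with siOrc6 and 1 lower (10% and 0.373% of the 1340). Of the 9, 8 had a siOrc6 library with no region, where the added 0.5 sets the value. PCDH15, a protocadherin with the largest difference (3.22, SE 0.59, limma adjusted p = 0.00672), had 3 of 5 regions in its ends with siOrc6, against 0 of 23 with siGl3, and 2 empty siOrc6 libraries. DPYD, with regions in all 8 libraries, had 4 of 6 against 1 of 12 (3.14), and CAMTA1 was lower with 1 of 31 against 2 of 9 (−2.17). By the excess, 3 genes were higher and 1 lower (1.42% and 0.224%), and 1 of the 9 was among the 3. The first count was 0 without replicate 1 of siGl3 NT and 4 to 6 without replicate 2 of siGl3 NT, either siOrc6 NT library or replicate 1 of siOrc6 H2O2. The ends held 2.52 ± 0.460 times the density inside in siOrc6 libraries, against 1.55 ± 0.179 in siGl3 libraries (mean ± SD, n = 4 each).

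In gene-end windows, 5 genes, among them RANBP2, CNTN4, ADGRL3 and CDH13, had a SMARCA1 region in 4 of 4 siOrc6 libraries and 0 of 4 siGl3 libraries, and 0 the reverse (3.98% and 0.0418% of all genes). The adjusted p of that pattern was 0.0703 (Fisher's exact test, two-sided, unadjusted p = 0.0286), so none passed. Without replicate 2 of siGl3 H2O2 or of siOrc6 NT, 10 and 8 genes showed it. For OGG1, 0 of the 119 genes were called between siRNAs by limma (0% of 1340, 3 at an unadjusted p under 0.05) or by the quasi-Poisson model (0%, 11 unadjusted), and 1 by limma without replicate 1 of siOrc6 NT. Ends against inside gave 0 (0% of 1340, 7 unadjusted), and by the excess 0 higher and 2 lower (0.149% and 0.597%), and gene-end windows gave 0 in either direction (0% and 0.00523% of all genes). The siOrc6 difference was more positive for OGG1 than for SMARCA1 in 9 genes and less so in 2 (6.79% and 2.54% of the 1340). CTNNA3 (3.55, SE 0.88, limma adjusted p = 0.0144) and DGKB (3.25) led the 9, and PTPRN2 (−2.88) and CAMTA1 (−2.33) were the 2.

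Between antibodies, OGG1 was compared with SMARCA1 over 8 libraries each. Ratios were higher for OGG1 in 2 genes, among them ASIC2 (1.28, SE 0.36, limma adjusted p = 0.0215), and lower in 13 (9.4% and 5.9% of the 1340). In lists of equal length the ASIC2 difference was −0.49. With pseudocount 2 there were 5 higher and 42 lower, and by bases covered 1 and 42. GPHN had the largest difference, 242 OGG1 regions against 427 SMARCA1 regions in longer OGG1 lists (−1.52, SE 0.22, limma adjusted p = 0.000101). ERBB4, the receptor of neuregulins (−1.42), NRG1 (−1.35) and RAD51B (−0.87) were also lower. In siGl3 cells, Orc6 was higher than OGG1 in 9 genes, led by ZBTB20 (2.17), LINGO2 (2.07) and SPAG16 (2.06), and lower in PTPRN2 (−1.69) and CAMTA1 (−1.62), with 4.55% and 5.67% of the 1340 called. Orc6 was lower than SMARCA1 in NEGR1 and MGAT4C, which held 0 and 1 Orc6 regions against 5 and 5, and higher in 0 (0.672% and 0.522%), and no call remained when any of 13 libraries was left out. Without replicate 2 of OGG1 siOrc6 NT, 23 genes were called between OGG1 and SMARCA1 and 22 between Orc6 and OGG1. Leaving out replicate 2 of OGG1 siGl3 H2O2, Orc6 NT or Orc6 H2O2 ended all calls between Orc6 and OGG1. It was 6 between OGG1 and SMARCA1 without replicate 1 of SMARCA1 siGl3 NT, replicate 2 of SMARCA1 siOrc6 NT, replicate 1 of SMARCA1 siOrc6 H2O2 or replicate 2 of OGG1 siGl3 NT.

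For each treatment the authors' deposited table lists windows of SMARCA1 as up or ns by position alone. The comparison behind those names is not stated in the labels. In the authors' deposited table for H2O2, 102 of 12142 up windows fell in the very long genes, an observed over expected of 0.175, and 510 of 31304 ns windows, 0.340. In the authors' deposited table for NT, 40 of 6967 up windows did, 0.120, and 141 of 5294 ns windows, 0.555. GPHN held the most of both up sets, 12 with H2O2 and 7 NT.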

How the data were processed

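Per the labels' protocols, each reaction held 500000 cells, and reads were paired, of 150 bases. The build is hg38, per the submitters' processing notes, which list SEACR 1.1, DiffBind, DESeq2, deepTools, bedtools, SAMtools and Bowtie2 but no role for any of them. The authors deposited for each library, per the file layout, a list of regions with a total and a maximum signal, whose normalization and control the labels do not state. The deposited signal was used to rank regions within a list and for nothing else. The authors' deposited SMARCA1 windows carry a score column that is 0 throughout, so their positions alone were used. Longer lists or wider regions would change the counts, so depth limits each count to an unknown extent.

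A region was given to a gene by its midpoint, with spans from the RefSeq GRCh38.p14 table, the same build by name as that of the lists. Strand was known for 100 of the 119 genes through the RefSeq promoter table. The main test was limma 3.58.1 (trend) in R 4.3.3 on log2((observed + 0.5)/(expected + 0.5)) over 1340 genes of at least 200 kb, with 10 group means and Benjamini-Hochberg adjustment at 0.05. Gene-end windows were tested with Fisher's exact test, 4 against 4, over 19126 genes, adjusted over genes occupied in exactly 4 of 8 libraries. Groups and replicate numbers came from the titles. Labels name the replicate number as a batch, so the numbers pair the samples, and a fit with that block was run. The correlation over 1340 genes of replicate differences between groups had a median of −0.02 and lay between −0.36 and 0.49 over 45 pairs of groups, 12 of them over 0.1. Tested on simulated data for OGG1 with H2O2 against NT over 1340 genes, the limma fit recovered 65% of 100 genes raised 4 times and 52% of 100 lowered 4 times, with 11 calls among unchanged genes and 0 in unchanged data. The simulation gave every gene a mean above 0, also those empty in the lists, and an assumed noise. It therefore does not cover the calls in empty genes that follow from list length and the added 0.5.

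Alternatives covered any overlap, pseudocount 2, genes of at least 100 kb, lists of equal length, bases covered, no scaling, expectation by chromosome, other end zones and windows, the replicate block and each library left out. The quasi-Poisson model, the level tests and the excess over a uniform spread were added after seeing the data. Genes were named by a rule: the 5 longest, the fragile-site list, the 5 highest and 5 lowest, the 2 genes on each side of the limit, and up to 8 called per direction. Genes named beyond it, such as those given for ends, shared intervals or promoters, were chosen after their values were seen. The members, the fragile-site list and the role groups were chosen with earlier results of these data known. All 119 genes enter the counts, and the values of 4 genes that the rule names are not reported here. The scripts ran on Python 3.11.15 with pandas 2.3.3, scipy 1.17.1, matplotlib 3.10.9 and numpy 2.4.6.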

Additional observations from a re-analysis of the deposited data

Results flagged for a closer look

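In 23 very long genes the change with H2O2 differed between OGG1 and SMARCA1 when that difference was itself tested (limma adjusted p under 0.05, 4 against 4 libraries for each protein), 22 more positive for OGG1 and 1 less so. Over the 1340 genes the shares were 16.2% and 3.21%, so the 18.5% and 0.84% of the very long genes are near the background or below it. NTM held 30 and 23 (siOrc6) and 35 and 50 (siGl3) OGG1 regions with H2O2, against 2 and 1 (siOrc6) and 1 and 1 (siGl3) NT. Its SMARCA1 regions were 3 and 6 (siOrc6) and 7 and 3 (siGl3) with H2O2, against 3 and 2 (siOrc6) and 3 and 4 (siGl3) NT. List length moves with both changes, and its part in the difference was not tested.

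In 11 very long genes the difference between siOrc6 and siGl3 itself differed between OGG1 and SMARCA1 by the same test, 9 more positive for OGG1 and 2 less so. These are 7.56% and 1.68% of the 119, near the 6.79% and 2.54% of the 1340. CTNNA3 held 33 and 7 (H2O2) and 0 and 8 (NT) OGG1 regions with siOrc6, against 24 and 17 (H2O2) and 0 and 1 (NT) with siGl3. Its SMARCA1 regions were 0 and 4 (H2O2) and 1 and 0 (NT) with siOrc6, against 30 and 12 (H2O2) and 4 and 4 (NT) with siGl3. The mark of a later submission on the SMARCA1 siOrc6 lists cannot be told apart from siOrc6.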

How the results depend on the processing

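The counts below are very long genes called in either direction, against the count in the report. With lists of equal length, SMARCA1 with H2O2 gave 4 (14), OGG1 with H2O2 0 (43), Orc6 with H2O2 1 (0), SMARCA1 siOrc6 9 (22), Orc6 against OGG1 5 (11), ends with H2O2 4 (1) for SMARCA1, 0 (15) for OGG1 and 1 (0) for Orc6, and OGG1 gene-end windows 0 (12). With pseudocount 2, SMARCA1 with H2O2 gave 81, OGG1 against SMARCA1 47 (15), Orc6 against SMARCA1 0 (2), Orc6 against OGG1 24, and ends 44 for SMARCA1 and 41 for OGG1 with H2O2. With bases covered, SMARCA1 with H2O2 gave 3, SMARCA1 siOrc6 13, OGG1 against SMARCA1 43, Orc6 against SMARCA1 12 and Orc6 against OGG1 24. With no scaling, SMARCA1 with H2O2 gave 43, all higher, OGG1 with H2O2 101, all higher, and SMARCA1 siOrc6, Orc6 against SMARCA1 and Orc6 against OGG1 0. No scaling puts the median log2 difference of all 1340 genes at 3.31 for OGG1 and 2.09 for SMARCA1 with H2O2, against 2.78 and 1.54 in the very long genes. The quasi-Poisson model gave 0 for SMARCA1 and 2 for OGG1 with H2O2. The excess over a uniform spread gave 27, 63 and 23 genes for SMARCA1, OGG1 and Orc6, against 101, 101 and 75, and for ends 5 (1) for SMARCA1 and 39 (15) for OGG1 with H2O2, and 4 (10) for SMARCA1 and 2 (0) for OGG1 with siOrc6. Ends of 25 kb gave 0 for SMARCA1 with H2O2, and windows of 5 kb 1 (5) for SMARCA1 siOrc6. Orc6 against SMARCA1 gave 1 with any overlap, 0 with genes of at least 100 kb and 1 with the replicate block. The replicate block changed no other count by over 1.5 times, and a paired exact sign test of windows cannot go below p = 0.125.

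With a library left out, calls against expectation were 112 to 113 for SMARCA1, 107 to 113 for OGG1 and 92 to 107 for Orc6. Ends gave 93 to 103, 95 to 105 and 61 to 77. With H2O2, bodies gave 1 to 17 for SMARCA1, 21 to 50 for OGG1 and 0 to 0 for Orc6, ends 0 to 2, 3 to 20 and 0 to 0, and windows 0 to 5 for SMARCA1 and 12 to 19 for OGG1. With siOrc6, bodies gave 3 to 33 for SMARCA1 and 0 to 1 for OGG1, ends 0 to 14 and 0 to 0, and windows 5 to 10 and 0 to 0. Between antibodies, calls were 6 to 23 (OGG1 against SMARCA1), 0 to 4 (Orc6 against SMARCA1) and 0 to 23 (Orc6 against OGG1).

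Log2 differences with H2O2 changed sign with no scaling for SMARCA1 in KCNIP4 (0.12), DPYD (0.22), INPP4B (0.31), CACNA2D3 (0.41), DSCAM (0.44) and GRM8 (0.45), and for OGG1 in CNTNAP2 (0.23), MGAT4C (0.43), SLC24A2 (0.65), CSMD1 (0.49), DPP6 (0.73) and NEGR1 (0.83). With lists of equal length they changed sign for OGG1 in ZBTB20 (−0.12) and PDE4D (−0.31), for OGG1 against SMARCA1 in ASIC2 (−0.49), and for OGG1 ends in NTM (0.40), SUGCT (1.77), ADAMTSL1 (0.40) and RANBP2 (−0.12). Beyond what the settings themselves change, the cause was not tested. Depth is unknown, so an empty gene may hold occupancy below what was called.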
